A study of Homo sapiens with 12 samples.

Results

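Expression of 9 genes of the major histocompatibility complex (MHC) pathway was followed from human embryonic stem cells to blood progenitors: HLA-B, HLA-C, HLA-E, B2M, TAP1, NLRC5, CIITA, CD74 and HLA-DRA. They were chosen by symbol among the 56593 symbols of the expression table, and each stood on 1 line. H1, an established human embryonic stem cell line, was profiled undifferentiated and after differentiation without feeder cells in chemically defined medium, first with BMP4 and Activin A and then with VEGF and bFGF. The sorted populations were APLNR+ mesoderm cells at day 2, CD31+CD34+ hemogenic endothelial progenitors at day 5 and CD43+ hematopoietic progenitors at day 8, with 3 RNA-seq libraries for each population and for H1, 12 in total. All 4 populations came from this single line, and the labels name no genetic modification. The table gives FPKM, a level per transcript length and per mapped total, and the absolute depth is unknown. Of the 9 genes, 7 reached 1 FPKM in at least 3 libraries and entered the test, as did 14840 genes in all; HLA-DRA and CIITA did not.

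MHC class I molecules show peptides from inside the cell to CD8 T cells and to natural killer cells. A polymorphic heavy chain, such as those encoded by HLA-B and HLA-C, pairs with the invariant light chain beta-2-microglobulin, the product of B2M, while the less variable HLA-E presents mainly leader peptides of other class I chains to natural killer cell receptors. TAP1 is a subunit of the transporter that carries peptides into the endoplasmic reticulum, and NLRC5 is a transactivator of class I genes. Class II molecules, of which HLA-DRA encodes an alpha chain, present extracellular peptides on professional antigen-presenting cells. CD74 encodes their invariant chain, and CIITA is the master regulator of their transcription. Pluripotent stem cells are known for low class I levels, and classical class I promoters carry a kappaB element, an interferon response element and an SXY module, through which NF-kB, interferon-induced factors and NLRC5 act.

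The promoter sequences are shown because HLA-B, HLA-C and TAP1 rose and fell at the same steps while B2M and CD74 followed other courses. RefSeq promoters of GRCh38.p14 were found for 5 of the 9 genes, and the 250 bases before the start of each are given 5′ to 3′ on the strand of the gene. These are reference sequences, not the alleles of H1, and their build is not the hg19 named in the submitters' processing notes. Capitals mark matches, on either strand, to GAAANNGAA (core of an interferon response element), ATTGG (core of the Y box), TGACG (core of the X2 box) and GGGGATTCC (a kappaB element).
HLA-B, chr6:31357180-31357429, minus strand: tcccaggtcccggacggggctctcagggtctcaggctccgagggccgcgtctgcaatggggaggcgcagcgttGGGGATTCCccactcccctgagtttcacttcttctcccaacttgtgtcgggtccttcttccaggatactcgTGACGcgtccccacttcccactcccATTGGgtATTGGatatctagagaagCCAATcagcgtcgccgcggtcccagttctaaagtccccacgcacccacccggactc
HLA-C, chr6:31272093-31272342, minus strand: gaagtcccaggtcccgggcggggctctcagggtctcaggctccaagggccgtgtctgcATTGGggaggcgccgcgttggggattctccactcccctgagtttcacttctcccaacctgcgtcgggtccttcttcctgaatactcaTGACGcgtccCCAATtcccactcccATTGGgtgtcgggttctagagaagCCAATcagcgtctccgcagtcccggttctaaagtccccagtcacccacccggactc
B2M, chr15:44711267-44711516, plus strand: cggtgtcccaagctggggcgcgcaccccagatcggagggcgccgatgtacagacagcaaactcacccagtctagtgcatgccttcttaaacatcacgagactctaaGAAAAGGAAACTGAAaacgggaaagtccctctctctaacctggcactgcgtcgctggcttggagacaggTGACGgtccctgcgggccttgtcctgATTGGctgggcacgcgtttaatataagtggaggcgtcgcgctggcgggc
TAP1, chr6:32853705-32853954, minus strand: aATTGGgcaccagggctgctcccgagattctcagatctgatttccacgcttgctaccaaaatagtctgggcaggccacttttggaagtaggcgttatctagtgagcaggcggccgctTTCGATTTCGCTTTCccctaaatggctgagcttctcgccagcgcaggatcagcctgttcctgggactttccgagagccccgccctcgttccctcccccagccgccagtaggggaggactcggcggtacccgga
CD74, chr5:150412911-150413160, minus strand: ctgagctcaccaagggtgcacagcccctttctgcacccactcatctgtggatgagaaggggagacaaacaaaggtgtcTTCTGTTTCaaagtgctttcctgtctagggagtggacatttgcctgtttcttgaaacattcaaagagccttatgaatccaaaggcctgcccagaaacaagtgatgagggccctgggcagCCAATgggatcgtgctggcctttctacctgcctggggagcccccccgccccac

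In the HLA-B and HLA-C windows TGACG began 106 and 105 bases before the start, and ATTGG or its complement stood at 3 and 4 places. HLA-B held GGGGATTCC at 177 bases before the start, a string found in 0.253% of the 35116 promoter windows of that table. The motifs were chosen with the sequences in view, so such shares do not test whether a match is unusual. Other spellings of a kappaB element were not searched. HLA-C reads ggggattctcc at the like place, and TAP1 holds gggactttcc and B2M gggaaagtccc, all unmarked. B2M held a pair of overlapping matches to GAAANNGAA, 144 and 138 bases before the start, and TAP1 held a pair on the opposite strand, at 133 and 127 bases. A single such match lay in the CD74 window at 172 bases. HLA-B and HLA-C held no such match, but both hold gagtttcacttct, a spelling that was not searched. A window without capitals for an element is therefore not shown to lack it. GAAANNGAA was found in 6.88% of all windows, ATTGG in 32.0% and TGACG in 21.2%, so the shorter strings are common. The start of TAP1 lies 488 bases from that of PSMB9, an immunoproteasome subunit gene read from the opposite strand. A second RefSeq start of TAP1 held none of the motifs. The matches are descriptions of the letters, and no binding was measured.

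Before the levels, the populations were checked against marker genes. The summed FPKM of 5 pluripotency genes was between 1791 and 1879 in H1 and between 559 and 640 in APLNR+ cells. It was between 297 and 374 in CD31+CD34+ cells, where POU5F1 averaged 84.35 FPKM. In CD43+ cells it was between 146 and 172, mostly LIN28A at a mean of 119 FPKM. The 6 blood progenitor genes summed to between 759 and 842 in CD43+ cells and to at most 55.1 elsewhere. ITGA2B, at a mean of 575 FPKM, made up most of the CD43+ sum. SPN, RUNX1, GATA1 and GFI1B were also highest there, but PTPRC was at most 0.521 FPKM. Neighbouring stages were less separate. Mesoderm genes summed to between 538 and 586 in APLNR+ and between 391 and 440 in CD31+CD34+ cells, with APLNR at means of 383 and 403 FPKM. Endothelial genes summed to between 427 and 588 in CD31+CD34+ and between 236 and 317 in CD43+ cells, and PECAM1, which encodes CD31, averaged 55.2 and 95.9 FPKM. In bulk RNA of this kind, fewer cells of a type and less RNA per cell cannot be told apart. Entries at or above 1 FPKM numbered from 12313 to 13084 per library. The FPKM of all entries summed to between 568036 and 1576040 per library, so the totals were unequal. Upper-quartile scaling factors of the tested genes ran from 0.906 to 1.07. An FPKM of 0 can be a failed estimate in this table, since 6 libraries list it for EEF1A1, a translation factor gene of all cells. The study's methods speak in general of independent experiments for each analysis, but the labels do not tie the 3 libraries of a population to separate cultures, so the p-values measure the spread between these libraries.

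**Figure D1:**
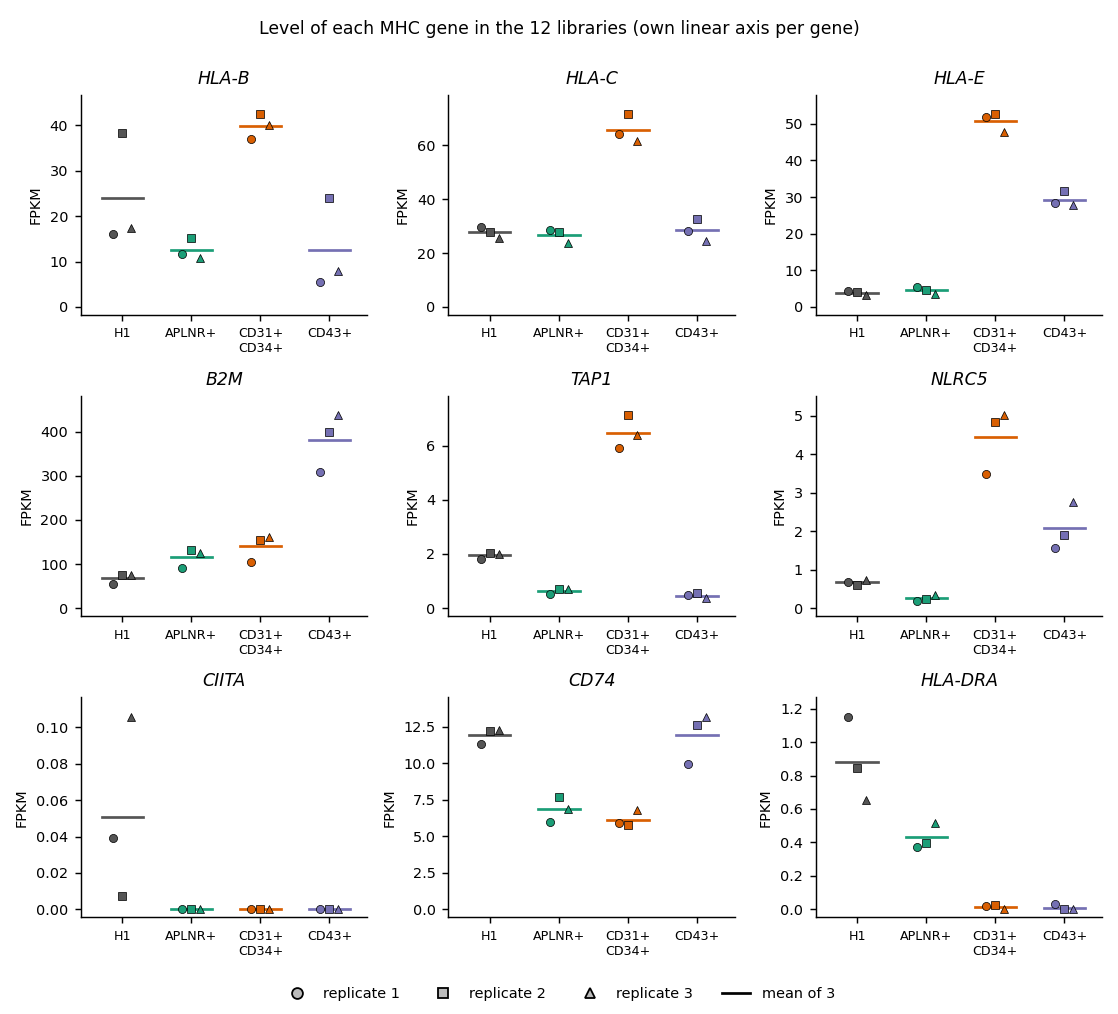
FPKM of the 9 MHC genes (vertical axes, linear, a separate scale for each gene) in H1, APLNR+, CD31+CD34+ and CD43+ cells. Each point is a library, its shape gives the replicate number, and horizontal lines are means of 3 libraries. HLA-C, HLA-E, TAP1 and NLRC5 were highest in the 3 CD31+CD34+ libraries, and B2M in the 3 CD43+ libraries.

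Among the heavy chains, HLA-C showed a single peak in CD31+CD34+ cells. Its FPKM was 29.6, 27.8 and 25.6 in the H1 libraries, 28.6, 27.7 and 23.8 in APLNR+ cells, 64.4, 71.6 and 61.5 at the CD31+CD34+ stage, and 28.2, 32.7 and 24.6 in CD43+ cells. The CD31+CD34+ libraries lay above all 9 others, which overlapped one another. HLA-C rose 2.47-fold in mean FPKM from APLNR+ to CD31+CD34+ cells, a log2(FPKM + 1) change of 1.27 ± 0.12 (SE, limma adjusted p 9.79e-07). It then fell by 1.19 ± 0.12 to CD43+ cells (limma adjusted p 3.67e-06). Between CD43+ and H1 cells the difference was 0.03, with a 95% interval from -0.22 to 0.29.

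HLA-B reached its highest mean in the same population but varied far more between libraries. It measured 16.0, 38.3 and 17.4 FPKM in H1, 11.8, 15.3 and 10.8 in APLNR+ cells, 37.1, 42.5 and 40.0 at the CD31+CD34+ stage, and 5.57, 24.0 and 7.85 in CD43+ cells. Replicate 2 was the highest library in every population, by over 2-fold in H1 and in CD43+ cells. The rise from APLNR+ to CD31+CD34+ cells was 1.60 ± 0.42 on the log2(FPKM + 1) scale (SE, limma adjusted p 0.00466), and the fall to CD43+ cells was -1.85 ± 0.42 (adjusted p 0.00287). Neither pair of populations overlapped. The values of CD43+ and H1 cells did overlap. There limma gave -1.03 ± 0.42 (adjusted p 0.0436), a call that was lost without H1 replicate 2 (-0.64), without CD43+ replicate 1 (-0.63) or replicate 3 (-0.85), and that was -1.60 without CD43+ replicate 2. Between CD31+CD34+ and H1 cells the log2 difference of 0.82 was not called, and became 1.21 and called without H1 replicate 2.

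HLA-E, the ligand of natural killer receptors, had the largest fold change of the 3 heavy chains from APLNR+ to CD31+CD34+ cells. Its FPKM was 4.36, 3.95 and 3.39 in H1 and 5.53, 4.54 and 3.61 in APLNR+ cells, then 51.9, 52.7 and 47.7 at the CD31+CD34+ stage and 28.4, 31.5 and 27.7 in CD43+ cells. H1 and APLNR+ libraries overlapped, whereas the later populations were separate from them and from each other. The mean was 11.1-fold higher in CD31+CD34+ than in APLNR+ cells, a log2(FPKM + 1) change of 3.23 ± 0.13 (SE, limma adjusted p 8.15e-10). CD43+ cells kept a mean 7.49-fold above that of H1, a log2 change of 2.63 ± 0.13 (limma adjusted p 2.04e-09), and stood 0.78 ± 0.13 below CD31+CD34+ cells, under the 2-fold minimum.

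Within each library the heavy chains were also set against each other. The ratio of HLA-B to HLA-C ranged from 0.198 to 0.732 among CD43+ libraries and from 0.541 to 1.38 among H1 libraries, while HLA-C itself ranged from 24.6 to 32.7 FPKM in the former and from 25.6 to 29.6 in the latter. HLA-E over HLA-C was between 0.132 and 0.193 in H1 and APLNR+ cells, between 0.735 and 0.807 in CD31+CD34+ cells and between 0.963 and 1.13 in CD43+ cells. These ratios were chosen after the values were seen.

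The class I genes are near-identical in places, and how the counting divided shared reads is not given in the sources used here. In GENCODE release 29 transcripts, 2.72% of the 50-base stretches of HLA-B, 5.38% of those of HLA-C and 4.34% of those of HLA-E also occur in another gene. HLA-B and HLA-C share 81 such stretches. B2M, NLRC5, CD74 and HLA-DRA shared none, while the share was 0.88% for TAP1 and 11.5% for CIITA. How far shared reads move the levels of the 3 heavy chains was not measured, so these levels are uncertain, and reads of H1 alleles that differ from the reference were not examined.

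**Figure D2:**
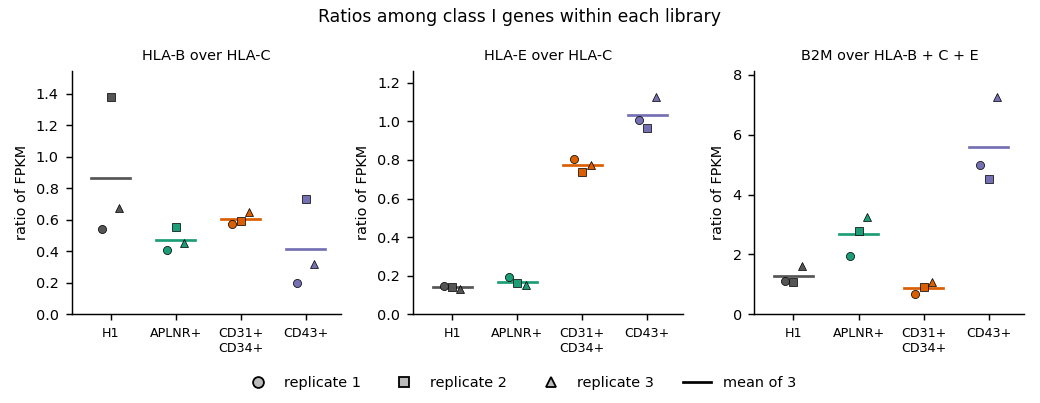
Ratios of FPKM within each library (vertical axes, linear, from 0) for HLA-B and HLA-E over HLA-C, and for B2M over the sum of HLA-B, HLA-C and HLA-E. Points are libraries, shapes give the replicate number and lines are means of 3. HLA-B over HLA-C spread from 0.541 to 1.38 in H1, and B2M over the heavy chains was highest in the CD43+ libraries, at 4.52 to 7.26.

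B2M, the light chain gene, did not peak with the heavy chains but was highest at the last stage. Its FPKM was 55.8, 75.4 and 74.6 in H1, 90.2, 132 and 124 in APLNR+ cells, 104, 153 and 161 at the CD31+CD34+ stage, and 309, 399 and 437 in CD43+ cells. APLNR+ and CD31+CD34+ libraries overlapped and the other populations were separate, with replicate 1 the lowest in each. From CD31+CD34+ to CD43+ cells B2M rose 2.73-fold, by 1.45 ± 0.20 on the log2(FPKM + 1) scale (SE, limma adjusted p 7.72e-05). At the preceding step, where HLA-B, HLA-C and HLA-E rose, the B2M difference was 0.26, with a 95% interval from -0.18 to 0.71 (limma adjusted p 0.255, or 0.00255 with the replicate number as a block). Over CD31+CD34+ against H1 it was 1.00 ± 0.20 (limma adjusted p 0.000646), at the 2-fold limit, and 0.86 without H1 replicate 1, 0.92 without CD31+CD34+ replicate 2 and 0.89 without replicate 3, each no longer called. The ratio of B2M to the summed HLA-B, HLA-C and HLA-E was between 0.681 and 1.08 in CD31+CD34+ cells and between 4.52 and 7.26 in CD43+ cells.

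TAP1, the peptide transporter subunit, was low outside CD31+CD34+ cells. It measured 1.81, 2.05 and 1.99 FPKM in H1, 0.512, 0.715 and 0.695 in APLNR+ cells, 5.92, 7.12 and 6.40 at the CD31+CD34+ stage, and 0.495, 0.543 and 0.360 in CD43+ cells. The populations were separate, except that APLNR+ and CD43+ libraries overlapped. TAP1 rose 10.1-fold in mean FPKM from APLNR+ to CD31+CD34+ cells, by 2.19 ± 0.10 on the log2(FPKM + 1) scale (SE, limma adjusted p 2.25e-09), and then fell by 2.35 ± 0.10 (adjusted p 2.22e-09). Adding 1 FPKM understates changes of low genes. With 0.1 FPKM in its place these changes were 3.16 and -3.55, and the difference between APLNR+ and H1 cells passed from -0.85, not called, to -1.48, called. CD43+ cells stood -1.01 ± 0.10 against H1 (limma adjusted p 1.06e-06), a size at the 2-fold limit: the call was lost without H1 replicate 2 (-0.99), without H1 replicate 3 (-0.9999) and without CD43+ replicate 3 (-0.96).

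NLRC5, the class I transactivator, followed the same order between APLNR+ and CD31+CD34+ cells. Its FPKM was 0.673, 0.595 and 0.735 in H1, 0.186, 0.239 and 0.350 in APLNR+ cells, 3.48, 4.84 and 5.01 at the CD31+CD34+ stage, and 1.56, 1.91 and 2.75 in CD43+ cells. No library of any population overlapped with another population. The rise from APLNR+ to CD31+CD34+ cells was 17.2-fold in mean FPKM and 2.10 ± 0.15 on the log2(FPKM + 1) scale (SE, limma adjusted p 1.04e-07), or 3.67 with 0.1 FPKM added. Unlike TAP1, NLRC5 in CD43+ cells stayed above H1, by 0.86 ± 0.15 (limma adjusted p 0.000174), which was under the 2-fold minimum with 1 FPKM added and 1.47, called, with 0.1. The fall from CD31+CD34+ to CD43+ cells, -0.83, was likewise called with 0.1 FPKM added, at -1.08, as was the difference between APLNR+ and H1 cells, -0.41 with 1 FPKM and -1.12 with 0.1.

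**Figure D3:**
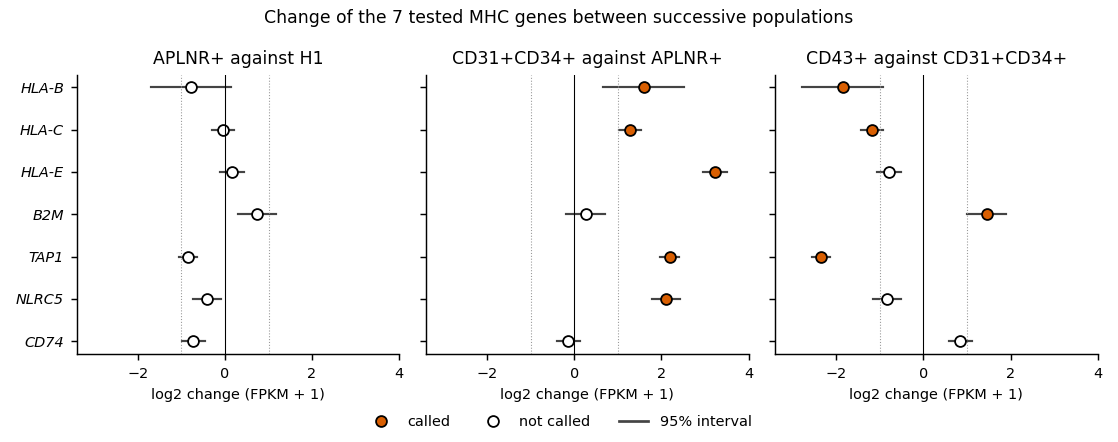
Log2(FPKM + 1) changes of the 7 tested MHC genes (horizontal axes) at the 3 successive steps, from limma, with 95% intervals as lines. Filled points were called at an adjusted p under 0.05 and at least 2-fold, and dotted lines mark 2-fold. From APLNR+ to CD31+CD34+ cells 5 genes were called higher, and from CD31+CD34+ to CD43+ cells 3 were called lower and B2M higher.

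Of the class II genes, CD74 alone among the 3 in this set entered the test, and it was lowest at both middle stages. It measured 11.3, 12.2 and 12.2 FPKM in H1, 6.00, 7.66 and 6.84 in APLNR+ cells, 5.88, 5.74 and 6.81 at the CD31+CD34+ stage, and 9.96, 12.6 and 13.2 in CD43+ cells. The middle populations overlapped with each other, as H1 did with CD43+ cells, and the 6 libraries of the middle stages lay below the 6 others. CD74 was lower in CD31+CD34+ than in H1 cells, at -0.86 ± 0.12 on the log2(FPKM + 1) scale (SE, limma adjusted p 2.91e-05) and higher in CD43+ than in CD31+CD34+ cells by 0.85 ± 0.12 (adjusted p 7.90e-05), both under the 2-fold minimum. CD43+ and H1 cells differed by -0.01, with a 95% interval from -0.27 to 0.25.

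HLA-DRA was low, and higher in the early stages. It measured 1.15, 0.842 and 0.653 FPKM in H1 and 0.376, 0.398 and 0.518 in APLNR+ cells. In CD31+CD34+ cells it was 0.0217, 0.0287 and listed at 0, and in CD43+ cells 0.0323 and listed at 0 in the other 2 libraries. All H1 libraries were above all others and the APLNR+ libraries above the later populations. In a limma fit with no filter, CD43+ cells stood -0.89 against H1 on the log2(FPKM + 1) scale (adjusted p 4.77e-05), not 2-fold on that scale. CIITA measured 0.0392, 0.00763 and 0.106 FPKM in H1 and was listed at 0 in the 9 libraries of the sorted populations. Its levels are too low for a comparison.

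Genes of other cell types, among them cells that carry class II molecules, were followed in the same libraries. Of 12 monocyte, macrophage and dendritic cell genes, only CSF1R, LYZ and AIF1 averaged at least 1 FPKM in CD43+ cells. The list summed to between 51.5 and 59.4 FPKM there, against at most 8.69 in any other library. AIF1 and LYZ made up most of that sum, at means of 36.0 and 13.2 FPKM, and AIF1 averaged 7.14 in H1. Of the rest, FCER1A averaged 0.687 FPKM in CD43+ cells, CD68 0.493 and ITGAX 0.194, less than its 0.562 in CD31+CD34+ cells. CD14, CD163, CD80, CD86, CD1C and CLEC9A averaged at most 0.113 in CD43+ cells. CSF1R, the receptor of macrophage colony-stimulating factor, was 4.70, 5.14 and 4.68 FPKM in CD43+ cells. Of 5 B lymphocyte genes CD79B alone reached 1 FPKM, with sums of 30.7 to 35.6 in CD31+CD34+ and 16.2 to 18.8 in CD43+ cells. T and natural killer genes summed to at most 4.37. The sum of 5 fibroblast genes was between 335 and 377 in CD31+CD34+ cells, where the heavy chains, TAP1 and NLRC5 were highest, and at most 131 elsewhere, but COL1A1 and COL1A2 made up most of it. COL3A1 averaged 24.2 FPKM there and 44.2 in CD43+ cells, LUM was highest in APLNR+ cells at 2.69, and DCN averaged at most 0.0726 in any population. The part of these cells in the MHC values was not tested.

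Read by stage, the fewest of the 7 tested genes were called at the first step. Between APLNR+ and H1 cells 0 were called by limma, where 8.3% of all 14840 tested genes were called higher and 7.62% lower. At an adjusted p alone, as at an unadjusted p under 0.05, 4 passed: TAP1, CD74 and NLRC5 were lower and B2M higher. From APLNR+ to CD31+CD34+ cells 5 of 7 were called higher (HLA-B, HLA-C, HLA-E, TAP1 and NLRC5) and 0 lower, where 12.5% of all genes were higher and 17.1% lower. From CD31+CD34+ to CD43+ cells 3 were called lower (HLA-B, HLA-C and TAP1) and 1 higher (B2M), beside 8.79% and 5.58% of all genes.

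Over the wider intervals, which share these libraries and so are not independent of the steps, the genes split. CD31+CD34+ against H1 gave 5 called higher (HLA-C, HLA-E, B2M, TAP1 and NLRC5) beside a background of 16.9%, and 0 lower beside 23.2%. CD43+ against H1 gave HLA-E and B2M higher, beside 14.6% of all genes, and HLA-B and TAP1 lower, beside 22.5%; both falls lay close to the limits of the call. CD43+ against APLNR+ gave HLA-E, B2M and NLRC5 higher, beside 14.1%, and 0 lower, beside 19.4%.

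The pathway was counted in 5 lists, which include the MHC genes described above. At the step from APLNR+ to CD31+CD34+ cells 12.5% of all tested genes were called higher and 17.1% lower, and at the next step 5.58% and 8.79%. For class I molecules, 5 of 10 tested genes were called higher and 1 lower at the first of these, or 2 and 1 of the 6 that are not among the 9 MHC genes, with a median log2 change of 0.95 against -0.01 for all genes. Besides HLA-B, HLA-C and HLA-E these were FCGRT and MICA, a stress-induced ligand of natural killer cells. CD1D, which presents lipids, was the one that fell. From CD31+CD34+ to CD43+ cells HLA-B and HLA-C fell and B2M and FCGRT rose, with a median of -0.23. HLA-F averaged 1.88 FPKM in H1 and 0.371 in CD43+ cells and fell by 1.07 between them (limma adjusted p 1.16e-05), and HLA-G was at most 0.619 FPKM in any library.

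Among 12 tested genes of peptide generation and loading, TAP1, TAPBP, PSMB8, PSMB9 and ERAP1 were called higher from APLNR+ to CD31+CD34+ cells and 0 lower, with a median of 0.80. The next step gave 0 higher and 4 lower (TAP1, TAP2, PSMB8 and PSMB9), with a median of -0.28. PSMB8, an immunoproteasome subunit, averaged 5.07 FPKM in H1 and 0.667 in APLNR+ cells, then 5.79 at the CD31+CD34+ stage and 1.55 in CD43+ cells. PSMB9, whose start lies next to that of TAP1, measured 1.44, 0.873 and 0.543 FPKM in H1, was listed at 0 in the APLNR+ libraries, was 2.20, 3.32 and 2.54 in CD31+CD34+ cells and was at most 0.164 in CD43+ cells. Both neighbours were highest in CD31+CD34+ libraries. TAPBP, which tethers class I molecules to the transporter, stayed up: it averaged 11.8 FPKM in CD31+CD34+ and 7.67 in CD43+ cells, against 2.70 in H1. TAP2, the partner subunit of TAP1, ranged from 1.07 to 5.72 FPKM among CD31+CD34+ libraries. Its difference from APLNR+ cells was 0.45 on the log2(FPKM + 1) scale, under the 2-fold minimum (limma adjusted p 0.341), and its fall to CD43+ cells was -1.07 (adjusted p 0.0441), with overlapping libraries.

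Of 16 genes in the class II list 10 were tested. The list also holds lysosomal enzyme genes, of which CTSL, LGMN and IFI30 were tested and enter its counts and median. From APLNR+ to CD31+CD34+ cells HLA-DRB1 was called higher and IFI30, a lysosomal thiol reductase, lower, with a median of 0.17. From CD31+CD34+ to CD43+ cells HLA-DPA1 was called higher and HLA-DQB1 and LGMN lower. HLA-DPB1, a beta chain, averaged 11.4 FPKM in H1 and 6.17 in APLNR+ cells, then 12.7 at the CD31+CD34+ stage and 18.1 in CD43+ cells, and was thus highest in CD43+ cells, where HLA-DRA was at or near 0. HLA-DPA1, its partner, was 2.51, 5.14 and 3.60 FPKM in CD43+ cells and at most 1.43 in CD31+CD34+ cells. HLA-DRB1 was 2.85, 2.48 and 2.35 FPKM in the CD43+ libraries. HLA-DMA averaged between 1.30 and 1.52 FPKM in each population.

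**Figure D4:**
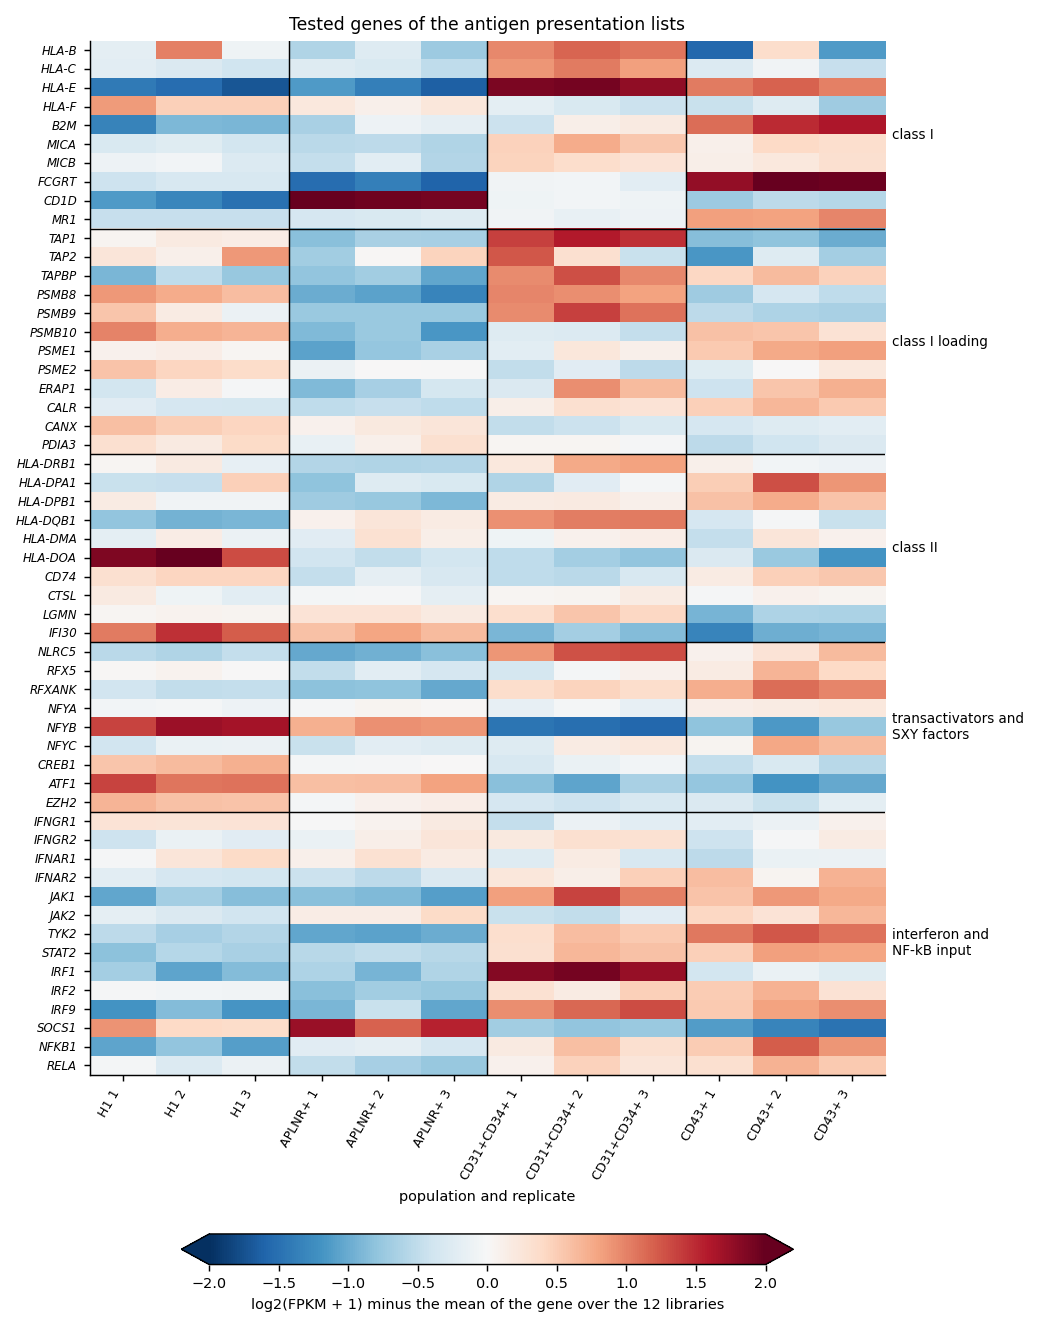
Log2(FPKM + 1) of the tested genes of 5 antigen presentation lists (rows) in the 12 libraries (columns), minus the mean of each gene over the libraries. Red is higher and blue lower, with the colour at its limit beyond 2. IRF1, TAP1, PSMB9 and HLA-E were highest in the CD31+CD34+ columns, while B2M and FCGRT were highest in the CD43+ columns.

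The list of transactivators and factors of the SXY module had 9 tested genes and also held EZH2, a histone methyltransferase gene that is neither. Its 2 calls in each direction were a share near that of all genes (12.5% higher and 17.1% lower). NLRC5 and RFXANK were called higher and NFYB and ATF1 lower from APLNR+ to CD31+CD34+ cells, with a median of -0.14, EZH2 (-0.41) included. RFX5, an X box subunit, averaged 16.1 and 19.4 FPKM in those populations and was not called. At the next step 0 were called in either direction by limma. At an adjusted p alone, NLRC5 and CREB1 were lower and RFX5, RFXANK, NFYA and NFYB higher at that step, and NFYC had an unadjusted limma p of 0.0306.

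Among 14 tested genes of interferon and NF-kB signaling, 6 were called higher from APLNR+ to CD31+CD34+ cells (JAK1, TYK2, STAT2, IRF1, IRF2 and IRF9) and SOCS1, an inhibitor of JAK signaling, lower, beside 12.5% and 17.1% of all genes, with a median of 0.79. IRF1, a transcription factor that acts at interferon response elements, measured 3.80, 2.86 and 3.86 FPKM in APLNR+ cells, 25.2, 26.7 and 23.7 at the CD31+CD34+ stage and 4.71, 5.70 and 5.19 in CD43+ cells. It rose by 2.55 ± 0.12 on the log2(FPKM + 1) scale (SE, limma adjusted p 4.90e-09) and fell by 2.08 ± 0.12 (adjusted p 4.66e-08), and was the only gene of this list called at the second step. Of the interferon genes themselves only IFNG and IFNB1 were followed, and they averaged at most 0.0964 FPKM in any population.

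As a description, Pearson correlations of log2(FPKM + 1) over the 12 libraries, which share their 4 populations, were ranked among 7664 genes with a mean of at least 10 FPKM in some population, leaving out the 9 genes themselves. HLA-C was most like MTCH1 (0.991), RCN3 and SLC25A1. The pattern of HLA-E was closest to those of GFI1 (0.998), CSRP1 and SH3TC1, and that of NLRC5 to TEK (0.990), S100A16 and ERG. TAP1 was most like PKDCC (0.987), TEAD4 and TUBA1B. B2M stood nearest to PAPSS1 (0.991), FTL and DIAPH1, and CD74 to ZNF32 (0.979), TFDP2 and HSPA8. HLA-B had the weakest best match, CAMK2G at 0.918, followed by TEAD4 and EFNA4.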

How the data were processed

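RNA-seq libraries from H1, APLNR+, CD31+CD34+ and CD43+ cells, 3 each, were grouped and numbered by their sample titles. Per the labels, RNA was extracted with Trizol and libraries were made with an Illumina TruSeq kit. The authors deposited 1 table of FPKM values. The submitters' processing notes name BWA, Bowtie, RSEM and hg19 without a role. The program, annotation and scaling behind the FPKM are not given in the sources used here. Of its lines, 58365 hold genes and 1 line of text was left out. For the 345 symbols on several lines, none of them an MHC gene here, the line of highest mean FPKM was used.

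Genes reaching 1 FPKM in at least 3 libraries (14840) were tested on log2(FPKM + 1) with limma 3.58.1 in R 4.3.3, with 4 populations in 1 model, eBayes with trend, no covariate and Benjamini-Hochberg adjustment per comparison. Calls required an adjusted p under 0.05 and at least a 2-fold change. The fit was tested on simulated data with known changes. The smallest p of an exact two-sided permutation test is 0.1 with 3 libraries a side. The depth is unknown, and the 3 libraries limit the precision. Alternatives were another pseudocount, no filter, 2 other scalings, the replicate number as a block, no trend, the compared populations alone, summed lines, no minimum change, replicates 2 and 3 alone and leaving out each library.

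The MHC genes, lists and rules were chosen with earlier results of these data known. Named genes were the 9 MHC genes, listed partners of each pathway, up to 5 further called genes of a list, and the 3 genes of most like pattern. Some genes of these lists are not reported here. Promoter motifs were chosen with the sequences in view. Python 3.11.15 with pandas 2.3.3, numpy 2.4.6, scipy 1.17.1 and matplotlib 3.10.9 did the rest.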

Additional observations from a re-analysis of the deposited data

How the results depend on the processing

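Of 630 recomputed log2 changes of single MHC genes (42 results under 15 alternatives each), 592 kept their direction and their side of the call, 17 lost the call, 5 gained it and 16 changed sign, none of them a called result. For the number of genes called, APLNR+ against H1 went from 0 to 2 with a pseudocount of 0.1 and to 4 with no minimum change, CD43+ against CD31+CD34+ from 4 to 7 with no minimum change, and CD43+ against H1 from 4 to 2 with upper-quartile scaling and with quantile normalization. Leaving out each library gave 2 to 4 for CD43+ against H1 and 4 to 6 for CD31+CD34+ against H1, and the other 4 counts did not move. Quantile normalization shifted the median of all genes in CD43+ against H1 by 0.12.

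Signs changed only near 0. HLA-C in APLNR+ against H1 was -0.05, but 0.047 with upper-quartile scaling and 0.095 with quantile normalization, and -0.10 to 0.026 over left-out libraries. CD74 in CD43+ against H1 was 0.097 with upper-quartile scaling, 0.15 with quantile normalization, 0.073 with replicates 2 and 3 alone, and -0.078 to 0.11 over left-out libraries. CD74 in CD31+CD34+ against APLNR+ was 0.016 and TAP1 in CD43+ against APLNR+ 0.051 with quantile normalization. HLA-B in CD43+ against APLNR+ was 0.10 with replicates 2 and 3 alone and -0.82 to 0.14 over left-out libraries. HLA-C ranged from -0.066 to 0.13 in CD43+ against H1 and from -0.014 to 0.19 in CD43+ against APLNR+ over left-out libraries. The fall of HLA-B in CD43+ against H1 also lost its call with no filter (adjusted p 0.218), with the compared populations alone (0.108), with replicates 2 and 3 alone (-0.85), and at -0.92 and -0.91 under the scalings; TAP1 was there -0.95 and -0.83, and B2M in CD31+CD34+ against H1 was 0.99 with quantile normalization. The cause was not tested, except that fewer libraries or other multiplicity enter by construction.

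Replicate numbers were not taken to pair the libraries, since only 12 of 18 same-number pairs had deviations correlated over 0.1 (range -0.021 to 0.43). All 6 pairs of replicate 1 did (0.20 to 0.43), and a library correlated best with its own number in 23 of 36 cases, a hint from the data, not from the design. With the replicate block, the counts of MHC genes called stayed 0, 5, 4, 4, 5 and 3, and the call of every single one stayed as it was.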

Other observations

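Class I-like genes that bind other partners took courses of their own. FCGRT, the neonatal Fc receptor, which also pairs with beta-2-microglobulin, measured 6.72, 7.23 and 7.25 FPKM in H1, 2.56, 2.98 and 2.37 in APLNR+ cells, 8.72, 8.83 and 7.89 at the CD31+CD34+ stage and 33.9, 44.8 and 38.7 in CD43+ cells. Like B2M it was highest in CD43+ cells, where it rose by 2.07 against CD31+CD34+ cells on the log2(FPKM + 1) scale (limma adjusted p 1.83e-08). CD1D was highest in mesoderm, at 17.7, 15.4 and 15.2 FPKM in APLNR+ cells against at most 3.14 in every other library. MR1, which presents microbial metabolites, averaged 1.56 FPKM in CD43+ cells and at most 0.306 elsewhere.

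HLA-DOA, a modulator of class II peptide loading, averaged 7.49 FPKM in H1 and at most 0.745 in the sorted populations, and fell by 2.23 from H1 to APLNR+ cells (limma adjusted p 7.47e-06). PSMB10, the third immunoproteasome subunit, did not peak with PSMB8 and PSMB9: it averaged 38.4 FPKM in H1 and 10.9 in APLNR+ cells, then 16.9 at the CD31+CD34+ stage and 30.4 in CD43+ cells.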
